A study of Mus musculus with 27 samples.

Results

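The kynurenine pathway and the synthesis of nicotinamide adenine dinucleotide (NAD) were followed through 10 genes, Tdo2, Ido2, Kynu, Kmo, Haao, Acmsd, Qprt, Nampt, Nnmt and Nadk, out of 18820 genes with a named transcript cluster on the array. Members were chosen by gene symbol, with the cluster of the highest mean over all arrays standing for each gene, and every one of the 10 had a single cluster with its symbol alone, so the level did not decide which cluster was used. The genes themselves were listed with earlier results of these data known. All 10 passed the filter on low and invariant signals. Liver RNA came from 27 male C57BL/6J mice aged 28 months, and no allele or transgene was involved. The 8 C mice were fed the control diet AIN-93W from 9 weeks of age, and the 5 CR mice received 30% calorie restriction for the same time. The 7 MF mice were fed a medium-fat diet with 25% of the energy as fat from 9 weeks of age. The 7 CR-MF mice lived on CR until 24 months of age and were then moved to the MF diet for 4 months. Their food was at first raised week by week until feeding was ad libitum. All mice were fasted for 4 hours, given carboxymethyl cellulose by gavage and fasted for another 6 hours, and the CR mice alone had been fed part of their daily portion shortly before the fast. The comparisons ask how the liver levels of these genes differed under restriction, under a medium-fat diet, and after the late diet switch.

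The liver breaks down most of the tryptophan that is not used for protein. Tryptophan is opened to kynurenine, which passes through 3-hydroxykynurenine and 3-hydroxyanthranilate to an unstable intermediate, aminocarboxymuconate semialdehyde. At that point the enzyme ACMSD sends the carbon on to glutarate and complete oxidation, and what escapes it closes to quinolinate, from which QPRT starts the de novo synthesis of NAD. Most NAD is instead recycled from nicotinamide by NAMPT, while NNMT removes nicotinamide by methylation and NADK converts NAD to NADP.

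The values are log2 intensities made by the authors with Robust Multiarray Average (RMA), so that a difference of 1 is a doubling. Over all 35556 transcript clusters, named or not, arrays had medians of 5.38 to 5.48. Over the 18820 genes they correlated with each other at 0.975 to 0.995. Group means were compared with limma over all 27 arrays, and a gene was called at a Benjamini-Hochberg adjusted p under 0.05 across the 13993 tested genes. The 6 comparisons share arrays and are not independent of each other. In whole liver, fewer cells of a type and less RNA per cell cannot be told apart. The log2 of the summed intensity of 6 hepatocyte markers was 15.70 to 15.89 over all mice, a sum to which the most intense genes add most, and Alb, the albumin gene, had means from 13.60 to 13.64. Of the 2 markers that passed the filter, Cps1 was called lower in MF than in CR and Fgb was not called, and with each array centred on its median 6 passed and 3 were called lower.

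Acmsd was higher in the livers of restricted mice than in those of the other groups. The 5 CR mice had log2 intensities of 7.60, 7.82, 8.41, 8.46 and 9.45. In the 8 C mice the lowest value was 6.91, the median 7.23 and the highest 7.71. In the 7 MF mice these values were 6.58, 7.09 and 8.25. The groups overlapped, since the lowest CR mouse lay below the highest C mouse and the 2 lowest CR mice lay below the highest MF mouse, but all 5 CR mice were above both the C and the MF mean. In the 7 CR-MF mice Acmsd ranged from 6.48 over a median of 7.44 to 7.84, so that 3 CR mice were above every mouse of the diet switch group.

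Expressed as group means, Acmsd stood at 8.35 ± 0.72 in CR (SD, n = 5), 7.38 ± 0.43 in CR-MF (n = 7), 7.27 ± 0.31 in C (n = 8) and 7.19 ± 0.60 in MF (n = 7). MF livers had 2.23-fold less than CR livers (log2 difference -1.16, SE 0.28, limma adjusted p = 0.0176), and CR livers had 2.11-fold more than C livers (log2 difference 1.08, SE 0.27, limma adjusted p = 0.0414). Between CR-MF and CR the difference was of similar size, -0.97 (SE 0.28), but it did not pass the threshold over all genes (limma adjusted p = 0.112). The 3 groups without current restriction followed each other closely in order, with differences of 0.19 (95% interval -0.33 to 0.71) between CR-MF and MF, -0.08 (-0.59 to 0.43) between MF and C, and 0.11 (-0.40 to 0.62) between CR-MF and C. None of these passed the test.

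**Figure D1:**
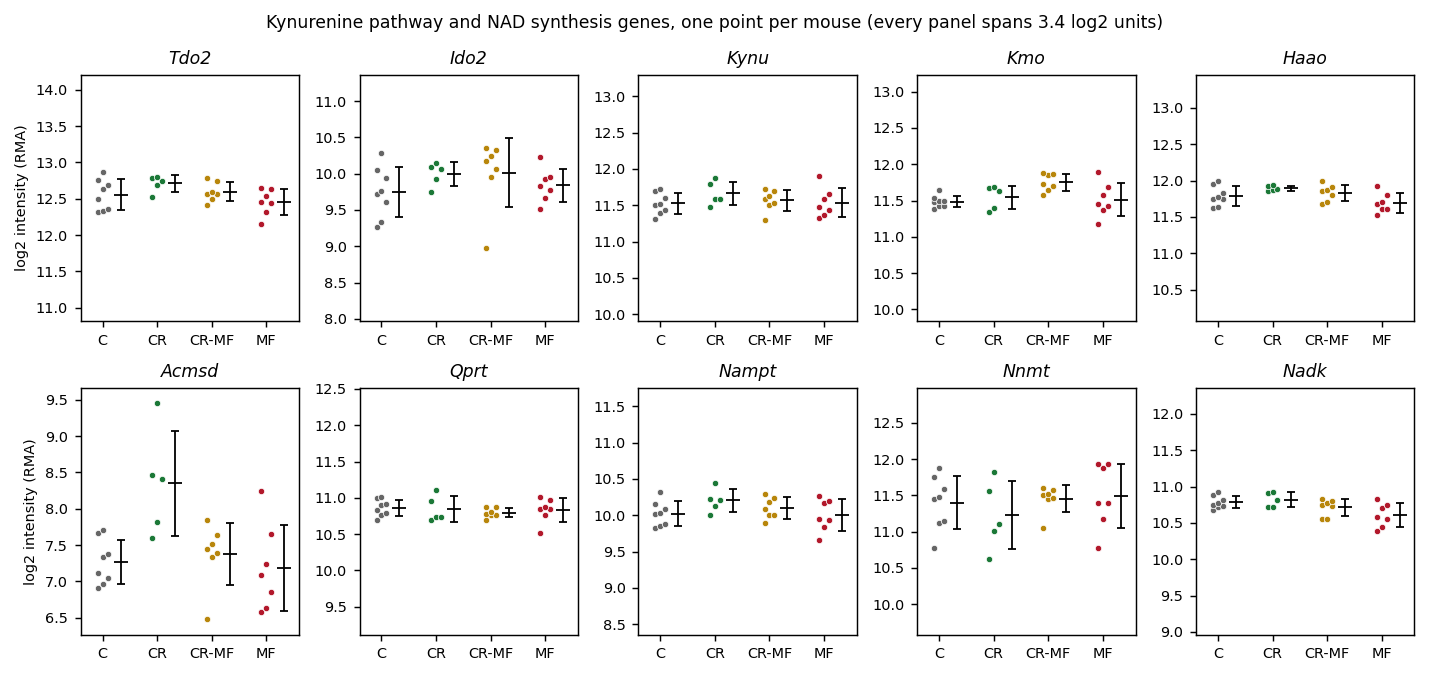
Log2 RMA intensity (y axis, the same span in every panel) of the 10 genes in each mouse (points) by diet group (x axis), with the group mean and SD in black; C n = 8, CR n = 5, CR-MF n = 7, MF n = 7. Acmsd spreads over 2.97 log2 units and its CR mean lies highest, while Qprt spreads over 0.59.

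The spread of Acmsd between mice was itself wide. Its pooled SD within groups was 0.51, against 0.12 to 0.37 for the other 9 members. Over all mice it covered 2.97 log2 units, followed by Ido2 with 1.37 and Nnmt with 1.31, and the remaining 7 members covered 0.48 to 0.78.

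The array names carry a code (G150, G151 or G152), read here as a plate, which was not stated. Each code held all 4 diets. Under G150 the Acmsd means were 8.48 ± 0.93 (SD, n = 3) in CR, 7.36 ± 0.63 (n = 5) in MF, 7.30 ± 0.50 (n = 5) in CR-MF and 7.19 ± 0.30 (n = 6) in C. Under G151, with 1 mouse per diet, Acmsd was 7.82 in CR, 7.66 in C, 7.52 in CR-MF and 6.64 in MF. Under G152 the CR mouse had 8.46, and the CR-MF, C and MF mice had 7.64, 7.34 and 6.85. The CR mean, or the single CR mouse, was thus highest under each code. With the code as a block the difference between MF and CR was -1.17 (limma adjusted p = 0.023) and that between CR and C 1.09 (limma adjusted p = 0.0506), and in the G150 arrays alone they were -1.12 (limma adjusted p = 0.139) and 1.29 (limma adjusted p = 0.0928). A row letter in the array names followed diet for every gene. Row F held all 8 C and 3 of the CR arrays, row G all 7 MF and the other 2 CR arrays, and row H all 7 CR-MF arrays. Row and diet therefore cannot be told apart except through the split CR arrays. That split was also a split by code, since the 3 CR arrays of row F were all under G150. The 2 of row G were under G151 and G152. Within G150 the CR arrays were all in row F and the MF arrays all in row G. With the row as a block the Acmsd difference was -0.95 between MF and CR (limma adjusted p = 0.197) and 1.22 between CR and C (limma adjusted p = 0.102), so that neither was called.

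**Figure D2:**
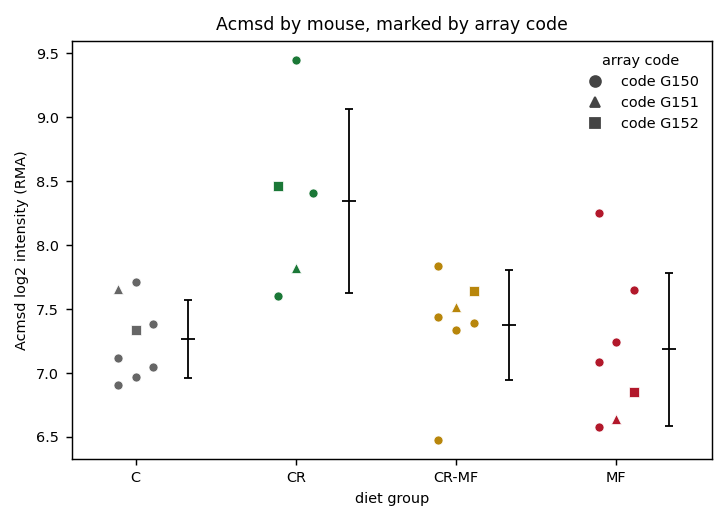
Log2 RMA intensity of Acmsd (y axis) in each mouse by diet group (x axis), with the marker shape giving the array code and the group mean and SD in black. The CR mouse is highest under G151 (7.82) and G152 (8.46), and under G150 the CR mice range from 7.60 to 9.45.

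The calls depended on single mice. Without the CR mouse B4_7, which had the highest Acmsd of all, the difference between MF and CR was -0.89 (limma adjusted p = 0.0546) and that between CR and C 0.80 (limma adjusted p = 0.112). Without B4_3 the difference between MF and CR was -1.13 (limma adjusted p = 0.0512) and that between CR and C 1.05 (limma adjusted p = 0.113). The call between CR and C was also lost without any 1 of the C mice A4_3, A4_5, A4_13, A4_17, A4_19 and A4_21, the CR mouse B4_5 or the CR-MF mouse BC4_1, with differences of 1.03 to 1.14 and limma adjusted p from 0.0501 to 0.0704. The direction was the same in every setting.

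**Figure D3:**
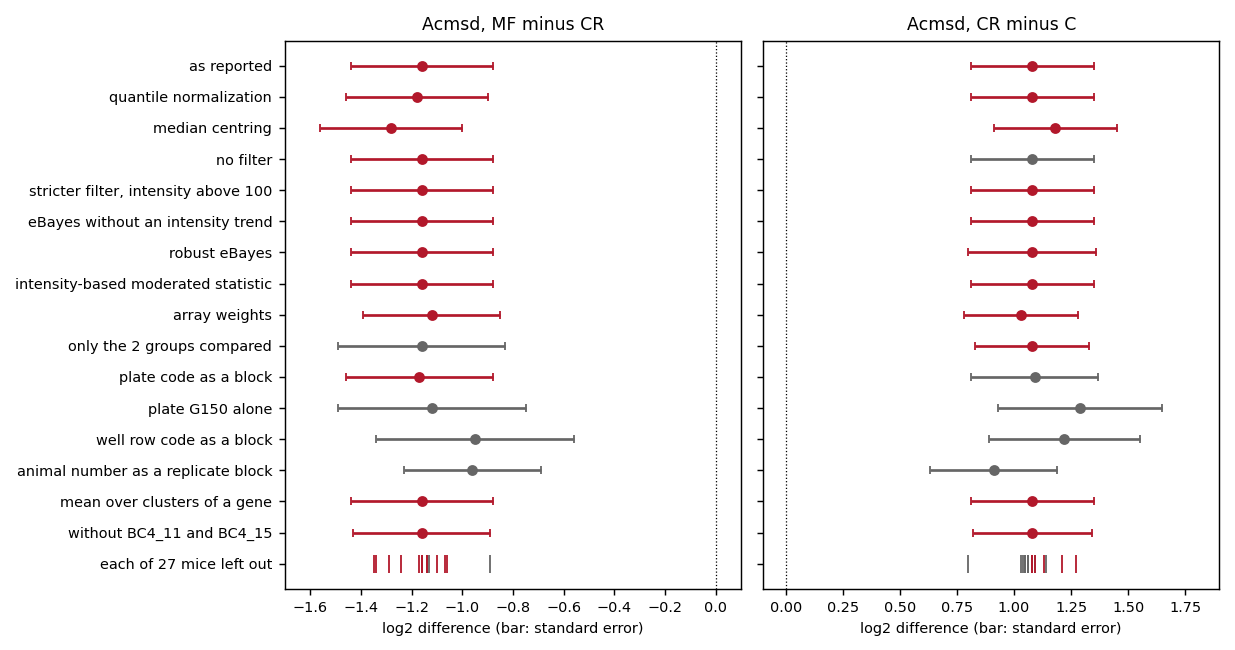
Log2 difference of Acmsd (x axis, bars are standard errors) between MF and CR (left) and between CR and C (right) for the fit as reported and each alternative setting (y axis), with the values after leaving out each mouse as ticks in the lowest row; red marks adjusted p under 0.05 and grey the others. Differences stay between -1.35 and -0.89 on the left and between 0.80 and 1.29 on the right, while the calls come and go.

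The first step, the opening of the tryptophan ring, is taken in the liver by tryptophan 2,3-dioxygenase, the product of Tdo2. Tdo2 was 12.52, 12.69, 12.75, 12.79 and 12.80 in the CR mice, against a lowest value of 12.15, a median of 12.46 and a highest value of 12.65 in the MF mice. All 7 MF mice were below the CR mean, and the groups overlapped through 1 CR mouse. The difference between MF and CR was -0.25 (SE 0.10, unadjusted p = 0.017), which did not pass the correction over all genes (limma adjusted p = 0.124). In C mice Tdo2 ran from 12.32 over a median of 12.57 to 12.87, and in CR-MF mice from 12.41 over 12.57 to 12.78.

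Ido2, a related dioxygenase with low activity on tryptophan, passed the test in none of the comparisons. It was 9.75, 9.92, 10.06, 10.09 and 10.15 in the CR mice. Its lowest, median and highest values were 9.27, 9.74 and 10.28 in C, 8.98, 10.18 and 10.35 in CR-MF, and 9.51, 9.83 and 10.23 in MF, and all groups overlapped. The CR-MF mouse BC4_15, which had the lowest Acmsd of all mice, also had the lowest Ido2. Ido1, the inducible enzyme of immune cells and not a member, was not above the filter level of 4.32 in any mouse, with group means of 3.57 to 3.67.

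Kmo, Kynu and Haao encode the enzymes that carry kynurenine on to the branch point. Kmo, which hydroxylates kynurenine, had its highest group mean in the CR-MF mice, 11.75 ± 0.12 (SD, n = 7), against 11.55 ± 0.16 (n = 5) in CR, 11.51 ± 0.23 (n = 7) in MF and 11.49 ± 0.08 (n = 8) in C. The CR-MF mice ran from 11.58 over a median of 11.73 to 11.88, the C mice from 11.38 over 11.48 to 11.64, the MF mice from 11.18 over 11.45 to 11.89, and the CR mice had 11.34, 11.40, 11.63, 11.67 and 11.68. All 7 CR-MF mice were above each of the other 3 group means, although every pair of groups overlapped. The log2 differences were 0.26 (SE 0.08) against C, 0.24 (SE 0.08) against MF and 0.20 (SE 0.09) against CR, with unadjusted p of 0.00282, 0.00703 and 0.0329, and none passed the correction (limma adjusted p = 0.182, 0.147 and 0.346). The CR-MF arrays were alone in their row, so that diet switch and array row cannot be told apart in these differences.

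Haao, whose dioxygenase makes the unstable semialdehyde, was 11.85, 11.87, 11.89, 11.92 and 11.94 in the CR mice, the narrowest group of any member with an SD of 0.04. The MF mice ran from 11.52 over a median of 11.68 to 11.93, with 6 of 7 below the CR mean. The difference of -0.20 (SE 0.07, unadjusted p = 0.0109) did not pass the correction (limma adjusted p = 0.1). Haao had means of 11.79 ± 0.13 in C (SD, n = 8) and 11.83 ± 0.11 in CR-MF (n = 7), both between those of CR and MF. Kynu, the kynureninase gene, had means of 11.66 ± 0.16 in CR (SD, n = 5), 11.57 ± 0.14 in CR-MF (n = 7), 11.53 ± 0.20 in MF (n = 7) and 11.52 ± 0.14 in C (n = 8). Its largest difference was 0.14 between CR and C (95% interval -0.05 to 0.33), which did not pass the test.

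On the NAD side of the branch point, Qprt was nearly level. Its group means were 10.86 ± 0.11 in C (SD, n = 8), 10.85 ± 0.18 in CR (n = 5), 10.83 ± 0.16 in MF (n = 7) and 10.79 ± 0.07 in CR-MF (n = 7). The difference between MF and CR was -0.02 with a 95% interval of -0.18 to 0.15, and that between CR and C was -0.02 with an interval of -0.17 to 0.14. Differences in Qprt as large as those in Acmsd lie outside these intervals.

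Nampt, the rate-limiting enzyme of NAD salvage, had a mean of 10.20 ± 0.16 in CR (SD, n = 5), with a highest mouse at 10.45. It ran from 9.66 over a median of 9.95 to 10.27 in MF, from 9.82 over 10.02 to 10.32 in C and from 9.90 over 10.08 to 10.30 in CR-MF, so that the groups overlapped. The difference between MF and CR was -0.20 (95% interval -0.41 to 0.01) and did not pass the test (limma adjusted p = 0.232). Nnmt, the methyltransferase of nicotinamide, had its lowest mean in CR, 11.23 ± 0.47 (SD, n = 5), against 11.40 ± 0.36 in C (n = 8), 11.45 ± 0.19 in CR-MF (n = 7) and 11.50 ± 0.44 in MF (n = 7). The 5 CR mice had 10.63, 11.01, 11.11, 11.56 and 11.82, which spans most of the range of the other groups, and the difference of 0.27 between MF and CR (95% interval -0.15 to 0.69) did not pass the test.

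Nadk was lowest in the MF mice. It ran from 10.39 over a median of 10.58 to 10.83 in MF, while the CR mice had 10.72, 10.72, 10.82, 10.91 and 10.93. In the C mice it ran from 10.68 over 10.76 to 10.92 and in the CR-MF mice from 10.55 over 10.75 to 10.83. All 5 CR and all 8 C mice were above the MF mean, although the 2 highest MF mice, C4_13 at 10.83 and C4_15 at 10.75, reached into both groups. The differences of -0.21 between MF and CR (SE 0.07, unadjusted p = 0.00643) and -0.17 between MF and C (SE 0.06, unadjusted p = 0.0111) did not pass the correction (limma adjusted p = 0.0785 and 1).

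**Figure D4:**
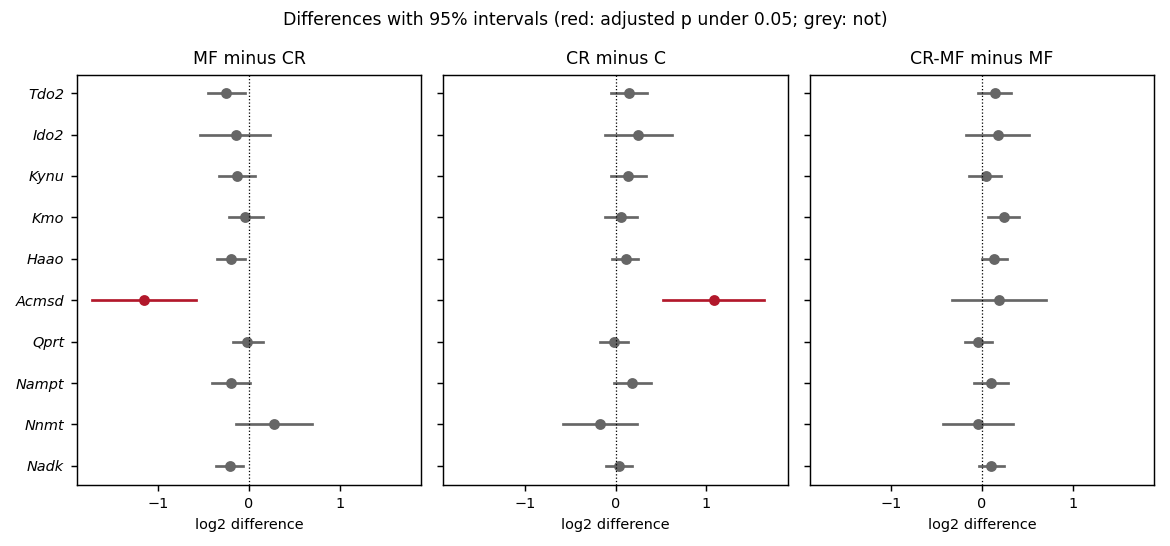
Log2 differences (x axis) of the 10 genes (y axis) between MF and CR, CR and C, and CR-MF and MF, with 95% intervals from the fit over all arrays; red marks adjusted p under 0.05 and grey the others. Acmsd stands at -1.16 and 1.08 in the first 2 panels and at 0.19 in the third.

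Counted over the members, 1 of 10 (Acmsd) was called lower and 0 of 10 were called higher in MF than in CR, where 2.62% of all tested genes were called lower and 2.8% higher. Between CR and C, 1 of 10 (again Acmsd) was called higher and 0 of 10 lower, against 0.765% of all genes called higher and 0.808% lower. No member was called between CR-MF and CR, between CR-MF and MF, between CR-MF and C or between MF and C, where 0.6%, 1.44%, 0.3% and 0% of all genes were called (in the last, 556 genes had an unadjusted p under 0.05). At an unadjusted p under 0.05, limma gave 2, 1, 1 and 1 of 10 members in these 4 comparisons. Of the 13993 tested genes, 1721, 2064, 1598 and 556 had such a p. Between MF and CR limma gave 4 of 10 members, all lower, beside 1564 of all tested genes lower and 1751 higher. The intensity-based moderated statistic called 0 members in each of the 4 comparisons. In each comparison the count of members called was therefore 1 or 0, and nothing was read from the counts beyond the gene itself.

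The signs of the differences were 9 lower and 1 higher in MF than in CR, where 51.4% of all tested genes were lower. The median was -0.18 beside -0.01 over all tested genes. Between CR and C there were 8 higher and 2 lower (46.1% of all genes lower), with a median of 0.12 beside 0.02. Between CR-MF and MF there were 8 higher and 2 lower (50.5% of all genes lower), with a median of 0.12 beside -0.00192. Between CR-MF and CR there were 7 lower and 3 higher, and between MF and C 6 lower and 4 higher. Between CR-MF and C there were 8 higher and 2 lower. Of all genes, 50.2%, 48.7% and 48.6% were lower in these 3 comparisons. After quantile normalization the signs between MF and CR were 7 lower and 3 higher with a median of -0.13.

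Centring each array on its median moved the median of all genes to -0.133 between MF and CR and to 0.113 between CR and C, and the share of all calls that were lower in MF than in CR moved from 48.3% to 86.1%. Under that scaling Haao, Nadk, Nampt and Tdo2 were called lower in MF than in CR together with Acmsd. The differences of Haao and Nadk were then -0.32 and -0.34, beside the median of -0.133 over all genes.

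The genes around the members came from lists chosen by their place in the pathway, with earlier results of these data known. Of 4 tested genes of kynurenine side reactions (Kyat1, Kyat3, Aadat and Got2), 1 was called between MF and CR. This was Kyat3, an aminotransferase that makes kynurenate, with means of 10.67 ± 0.32 (SD, n = 5) in CR and 10.09 ± 0.31 (n = 7) in MF and a difference of -0.58 (limma adjusted p = 0.0247). The call was lost without CR mouse B4_3 or B4_13 or MF mouse C4_1 or C4_7. All 4 genes were lower in MF than in CR by sign. The 3 genes that follow Acmsd towards oxidation (Aldh8a1, Dhtkd1 and Gcdh) were not called in any comparison. Aldh8a1, which oxidises the product of ACMSD, came closest, with a difference of -0.22 between MF and CR (limma adjusted p = 0.0707).

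Of 10 other tested genes listed as enzymes and carriers of NAD and NADP synthesis, 1 was called between MF and CR and 0 in the other comparisons. Nmnat2, an adenylyltransferase best known from neurons, was 5.81 ± 0.13 (SD, n = 5) in CR and 5.32 ± 0.19 (n = 7) in MF, a difference of -0.49 (limma adjusted p = 0.0219) that was no longer called without CR mouse B4_1, B4_3 or B4_13. Among the 7 sirtuins, the deacylases that consume NAD, 1 was called. Sirt3, the main mitochondrial deacetylase, was 9.20 ± 0.12 (n = 5) in CR and 8.73 ± 0.30 (n = 7) in MF, a difference of -0.47 (limma adjusted p = 0.0172), and the call was lost without CR mouse B4_3 or B4_13. None of the 8 tested PARP, tankyrase and NAD glycohydrolase genes was called. Tnks, a tankyrase, came closest with 0.25 between CR-MF and CR (limma adjusted p = 0.0932). None of the 6 tested NADPH-forming enzymes was called either, with Idh1, the cytosolic isocitrate dehydrogenase, at -0.35 between MF and CR (limma adjusted p = 0.0688).

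The disposal of nicotinamide draws on methyl groups and on aldehyde oxidases, and 8 genes of these routes were tested. Bhmt, which remethylates homocysteine with betaine, was 11.56, 12.03, 12.11, 12.27 and 12.48 in the CR mice. It ran from 12.53 over a median of 12.85 to 12.98 in MF, so that these groups did not overlap. Bhmt was higher in MF than in CR by 0.73 (limma adjusted p = 0.00189), higher in CR-MF than in CR by 0.58 (limma adjusted p = 0.0261), and lower in CR than in C by 0.54 (log2 difference -0.54, limma adjusted p = 0.026). The last 2 calls were lost with each array centred on its median, and that between CR-MF and CR without any 1 of CR mice B4_1 and B4_7 and CR-MF mice BC4_9, BC4_11 and BC4_13, and that between CR and C without C mouse A4_17 or CR mouse B4_1. Aox3, an aldehyde oxidase that can oxidise methylated nicotinamide, was higher in the CR-MF mice, at 11.12 ± 0.13 (SD, n = 7), than in the MF mice, at 10.37 ± 0.24 (n = 7), a difference of 0.75 (limma adjusted p = 0.0113) that was 0.81 and not called in the G150 arrays alone (limma adjusted p = 0.0556). Pemt, which spends methyl groups on phosphatidylcholine, was lower in CR-MF than in CR by 0.31 (log2 difference -0.31, limma adjusted p = 0.0446), a call that was lost in 14 of the 27 fits that left out 1 mouse.

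Tryptophan enters cells through large neutral amino acid transporters, of which 6 were tested. By sign, 5 of the 6 had less signal under CR than under C, with a median difference of -0.24, and only Slc43a1 had more. Of the 6 differences between MF and CR, 4 were positive and 2, among them that of Slc43a1, were negative, with a median of 0.26. Slc43a1 thus ran against most of its list in both comparisons. Slc43a1, which carries large neutral amino acids, was 7.81, 7.98, 8.33, 8.33 and 8.51 in the CR mice and ran from 7.66 over a median of 8.07 to 8.51 in the CR-MF mice. In the MF mice it ran from 6.71 over 6.92 to 7.67 and in the C mice from 6.76 over 7.49 to 7.90. The CR and MF groups did not overlap. Slc43a1 was lower in MF than in CR by 1.11 (log2 difference -1.11, limma adjusted p = 0.00315), higher in CR-MF than in MF by 0.97 (limma adjusted p = 0.00774) and higher in CR than in C by 0.83 (limma adjusted p = 0.0297), and the last call was lost without any 1 of C mice A4_3, A4_5 and A4_17 and CR mice B4_1, B4_3 and B4_13. In the G150 arrays alone the 3 differences were -0.87, 0.92 and 0.80, and none was called (limma adjusted p = 0.11, 0.0531 and 0.118). That between CR and C was also not called with the row or the animal number as a block (limma adjusted p = 0.183 and 0.0665). Slc3a2, the heavy chain that several of these carriers need, was higher in MF than in CR by 0.35 (limma adjusted p = 0.0473), a call lost in 15 of the 27 fits that left out 1 mouse. None of the 5 tested genes of the other uses of tryptophan was called, with Inmt, an indole methyltransferase, at -0.77 between MF and CR (limma adjusted p = 0.0585).

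**Figure D5:**
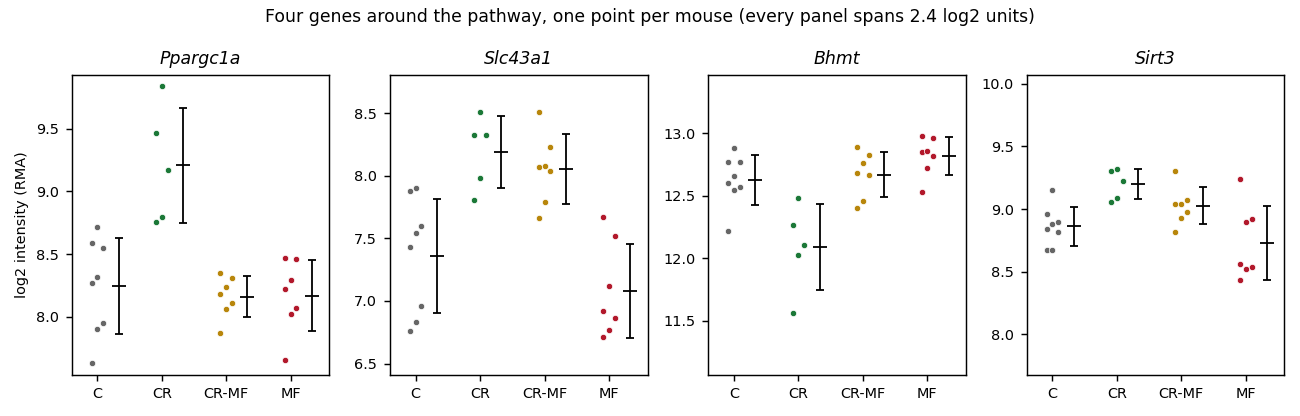
Log2 RMA intensity (y axis, the same span in every panel) of Ppargc1a, Slc43a1, Bhmt and Sirt3 in each mouse (points) by diet group (x axis), with the group mean and SD in black. Ppargc1a is highest in the CR mice alone, from 8.76 to 9.84, and Slc43a1 is high in both CR (8.19 ± 0.29) and CR-MF (8.05 ± 0.28).

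Of 5 tested transcriptional regulators that act on hepatic genes of this kind, 1 was called. Ppargc1a, the coactivator PGC1α of fasting metabolism, was 8.76, 8.80, 9.17, 9.47 and 9.84 in the CR mice, and its highest values elsewhere were 8.72 in C, 8.47 in MF and 8.35 in CR-MF, so that CR overlapped with none of the other groups. It was lower than in CR by 1.04 in MF (log2 difference -1.04, limma adjusted p = 0.00236) and by 1.05 in CR-MF (log2 difference -1.05, limma adjusted p = 0.0098), and higher in CR than in C by 0.97 (limma adjusted p = 0.0091). These 3 calls held without any 1 mouse, but that between MF and CR was lost with the row as a block (limma adjusted p = 0.0593), that between CR-MF and CR in the G150 arrays alone (limma adjusted p = 0.0624) and with the animal number as a block (limma adjusted p = 0.116), and that between CR and C with the animal number as a block (limma adjusted p = 0.065). The CR mouse B4_7 was highest for both Ppargc1a and Acmsd. The other CR mice did not keep the same order. B4_5 had the lowest Ppargc1a of the CR mice (8.76) with Acmsd at 8.41. B4_1 had their lowest Acmsd (7.60) with Ppargc1a at 9.17. A link between Ppargc1a and Acmsd was not tested. Hnf4a, a nuclear receptor of hepatocytes, and Ppara, a receptor of fatty acids, were not called in any comparison, with group means of 11.80 to 11.97 and 11.04 to 11.20.

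Kynurenine products act on the aryl hydrocarbon receptor, and Tdo2 is a classic target of glucocorticoids. Of 5 tested genes of that receptor and its targets, Cyp1b1 was called, higher in MF than in CR by 1.01 (limma adjusted p = 0.0166), but not with the row as a block (0.96, limma adjusted p = 0.141) or the animal number as a block (0.72, limma adjusted p = 0.119). With the mean over its clusters in place of the most intense one the Cyp1b1 difference was 0.46. Of 5 glucocorticoid targets, Tat, the tyrosine aminotransferase gene, was lower in MF than in CR by 0.46 (log2 difference -0.46, limma adjusted p = 0.015; not called without CR mouse B4_3), while Fkbp5, an inhibitor of the glucocorticoid receptor, had group means of 8.85 to 8.94. Of 9 tested clock genes, Cry1, a repressor of the clock, was called, higher in CR than in C by 0.86 (limma adjusted p = 0.0466; not called in 18 of the 27 fits that left out 1 mouse). Between MF and CR 0 of the 9 clock genes were called, but 6 had an unadjusted limma p under 0.05. Of the 13993 tested genes, 1564 lower and 1751 higher had such a p. With each array centred on its median, 4 of the 9 were called lower in MF than in CR, beside 1618 of 14358 tested genes. The part of meal timing in the Acmsd difference was not tested.

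Some markers of immune cells were called in the comparisons in which Acmsd was called. Of 6 recruited macrophage markers, 3 were called higher in MF than in CR (Ccr2, Gpnmb and Trem2) and 2 lower in CR than in C (Ccr2 and Trem2), each of which was lost in 7 or 8 of the 27 fits that left out 1 mouse. The log2 of their summed intensity was 10.50 to 10.70 in CR, 10.96 to 11.97 in MF, 10.59 to 12.60 in C and 10.53 to 12.42 in CR-MF. Of 5 tested T and NK cell markers, Themis was called, higher in MF than in CR by 1.85 (limma adjusted p = 0.000685) and lower in CR than in C by 1.25 (log2 difference -1.25, limma adjusted p = 0.0216; not called without CR mouse B4_1, B4_3 or B4_13). It was also lower in CR-MF than in MF by 1.04 (log2 difference -1.04, limma adjusted p = 0.0344), where Acmsd was not called, and this was lost in 8 of the 27 fits that left out 1 mouse. Epcam, 1 of 4 tested cholangiocyte markers, was lower in CR-MF than in MF by 0.78 (log2 difference -0.78, limma adjusted p = 0.0216; not called without CR-MF mouse BC4_9 or BC4_13 or MF mouse C4_15). Of 2 tested hepatocyte markers, Cps1 was called, lower in MF than in CR by 0.29 (log2 difference -0.29, limma adjusted p = 0.0287; not called in 6 of the 27 fits that left out 1 mouse).

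Other settings also ended calls of the genes around the members. With the animal number as a block, Kyat3, Nmnat2, Sirt3, Cps1, Ccr2, Gpnmb, Trem2, Pemt, Slc3a2 and Cry1 were not called. Under that block Bhmt and Themis kept only their calls between MF and CR. With the 2 groups alone, Kyat3, Sirt3, Cps1, Pemt, Slc3a2, Cry1 and Epcam were not called. That fit also ended the CR-MF calls of Bhmt (against CR) and Themis (against MF). Pemt, Slc3a2 and Cry1 were also lost in further settings. With the row as a block, Bhmt (between MF and CR), Nmnat2, Sirt3, Tat, Cps1, Ccr2, Gpnmb, Trem2, Slc3a2 and Cry1 were not called, nor was Themis between CR and C. In the G150 arrays alone, Kyat3, Nmnat2, Sirt3, Tat, Cps1, Pemt, Slc3a2, Cry1 and Epcam were not called, nor were Ccr2 and Trem2 between MF and CR or Themis between CR and C and between CR-MF and MF.

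Kupffer cell, dendritic cell, B and plasma cell, adipocyte, stellate cell and endothelial markers were not called in any comparison. The closest of each were Vsig4 at -1.06 (limma adjusted p = 0.067), Flt3 at -0.67 (limma adjusted p = 0.0778) and Cd79b at -1.34 (limma adjusted p = 0.144) between CR and C, Retn at 0.19 between MF and CR (limma adjusted p = 0.349), Dcn at -0.22 between CR-MF and MF (limma adjusted p = 0.151) and Oit3 at -0.50 between CR-MF and CR (limma adjusted p = 0.0746). Adipoq, the defining adipocyte gene, was below the filter level in all mice. The part of immune cells in the differences of the members was not tested.

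The 2 genes outside the members with the pattern most like that of Acmsd, by Pearson's r over the 27 mice among 13992 tested genes, were Zfp281 (r = 0.75, Spearman's rho = 0.68) and Crkl (r = 0.75, rho = 0.69). Zfp281 encodes a zinc finger transcription factor and Crkl an adaptor protein. With the group means removed, r was 0.59 and 0.49. All points come from the same arrays and the same normalization, and as the highest of so many the values serve as a description.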

How the data were processed

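Liver RNA of 27 mice was hybridised to Affymetrix Mouse Gene 1.1 ST arrays, 1 per mouse. The authors normalized the arrays with Robust Multiarray Average and deposited a log2 intensity for every transcript cluster; the software version is not given in the sources used here. The number of arrays limits the precision. Of the clusters, 21218 had 1 gene symbol and stood for 18820 genes, and those with several symbols (1881) or none listed (12457) were not used. Afmid and other listed genes without such a cluster were not analysed here. A gene was tested if its interquartile range exceeded 0.1 and its intensity exceeded 20, a log2 of 4.32, on 5 or more arrays, as 13993 did.

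Groups were compared with limma 3.58.1 in R 4.3.3 (lmFit, eBayes with an intensity trend, 4 group means, 23 residual degrees of freedom). Calls used Benjamini-Hochberg adjusted p under 0.05 over these genes. Tested on simulated data of 13993 genes, the fit between MF and CR called 93 of 100 genes changed by a log2 of 1, 68 of 100 changed by 0.5 and 8 of 13793 unchanged ones. Promoter sequences are not reported here. The members and lists were chosen with earlier results of these data known. Named genes are all members and, in each list, up to 4 called genes with the smallest p, or the 1 gene with the smallest p where none was called; Hnf4a, Ppara, Fkbp5, Alb, Adipoq and Ido1 were named after their values were seen. Alternatives were quantile normalization, median centring, no filter, a filter at an intensity of 100, eBayes without trend or robust, the intensity-based moderated statistic, array weights, the 2 groups alone, array code or well row as a block, G150 alone, animal number as a block, the mean over clusters and each mouse left out. Plate and row readings of array names are inferred.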

Additional observations from a re-analysis of the deposited data

Results flagged for a closer look

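In 3 of the 40 sets of values (10 genes in 4 diet groups), 1 mouse lay far from the others of its group by Dixon's test, which chance gives in about 1 of 20 such sets. All 3 were in the CR-MF group. The CR-MF mouse BC4_15 had an Ido2 log2 intensity of 8.98, while the other 6 lay between 9.95 and 10.35. The same mouse had an Acmsd log2 intensity of 6.48, with the others between 7.34 and 7.84. The CR-MF mouse BC4_5 had an Nnmt log2 intensity of 11.05, with the others between 11.45 and 11.60.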

How the results depend on the processing

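The number of members called between MF and CR was 1 in 10 of 15 alternatives, 5 with median centring, and 0 with the 2 groups alone, in G150 alone, with the well row as a block and with the animal number as a block. Leaving out each mouse gave 0 to 3, with 3 (Acmsd, Haao and Nadk) without MF mouse C4_13. Between CR and C it was 1 in 10 of 15 and 0 without the filter, with the array code or well row as a block, in G150 alone and with the animal number as a block, and 0 to 1 with each mouse left out. Between CR-MF and C it was 0, and 1 (Kmo, limma adjusted p = 0.0451) with array weights. Between CR-MF and MF it was 0, and 0 to 1 with each mouse left out (Kmo without MF mouse C4_7, limma adjusted p = 0.0439). Between CR-MF and CR and between MF and C it was 0 throughout. No difference named at an unadjusted p under 0.05 changed direction. The cause of these changes was not tested.

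Animal numbers in the labels recur across groups. Of 27 same-number pairs, 13 correlated above 0.1 (range -0.255 to 0.357). Pairs with different numbers were not compared, so these values cannot decide whether the numbers pair the mice. With this replicate block Acmsd differed by -0.96 between MF and CR (limma adjusted p = 0.0702) and by 0.91 between CR and C (limma adjusted p = 0.124), and 0 members were called in any comparison. The well row could not be fitted as a block for the CR-MF comparisons. Leaving out the CR-MF mice BC4_11 and BC4_15 together, chosen after seeing the data, changed no number of called members. The lowest value of any member in any mouse (6.48, Acmsd) was above the filter level of 4.32. That level is a chosen threshold and not a measured background.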
